A study of Mus musculus with 62 samples.

Results

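The 37 genes described here carry glucose through the muscle cell: 2 glucose transporters, 8 genes of upper glycolysis from hexokinase to triose phosphate isomerase, 4 genes that set the level of fructose bisphosphates, 7 of lower glycolysis from glyceraldehyde phosphate dehydrogenase to pyruvate kinase, 4 of lactate production and transport, 8 of glycogen synthesis, 3 of glycogen breakdown and Gpd1, the cytosolic glycerol phosphate dehydrogenase. They were picked by symbol for the roles of their products, and make up 37 of the 47643 genes in the table. All 37 were above 0 in all 62 mice and all 37 were among the 13578 genes tested, that is, those with a TPM (a read share scaled by transcript length and library) of at least 1 in at least 5 mice.

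The samples were diaphragms, the main muscle of breathing, from 62 female mice that were 2 months old when injected. The mice carried a melanoma xenograft that causes wasting (cachectic), carried a melanoma xenograft that does not (non-cachectic), or had a mock injection (control), and were taken at 2, 4, 6 or 8 weeks, with 5 mice in each of the 12 conditions except 7 cachectic mice at 8 weeks. The tumors were patient-derived cells inoculated under the skin of the flank and the controls received saline, so that every comparison of the cachectic with the non-cachectic tumor is also one of 2 unrelated tumors. The sample labels name the strain C57BL6/J, whereas the design text and the methods name NCI Ath/nude mice, which lack T cells and accept human tumors, and the labels give all groups the same strain, sex and age, which the design text gives as the age at injection. Mice taken at later weeks were older, so that a difference between weeks is also one of age.

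Glycolysis splits glucose into pyruvate with a small yield of ATP, and it is the fast source of energy for contraction. Muscle stores glucose as glycogen, a branched polymer that grows on the protein glycogenin and is cut by glycogen phosphorylase when phosphorylase kinase activates it. Fast fibers rely on glycolysis and glycogen more than slow fibers, and the diaphragm, which works without rest, is rich in mitochondria and holds both kinds.

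TPM is scaled by transcript length, so levels of different genes can be compared within it. Across the 20 control mice, 6 members had a median above 1000 TPM, namely Aldoa (1829 TPM), Eno3 (1781), Ldhb (1614), Pgam2 (1374), Pygm (1274) and Pfkm (1151). A further 13 members lay between 100 and 1000 TPM, among them Gapdh (864), Pkm (850.3), Tpi1 (683), Ugp2 (439), Pgk1 (429.9), Ldha (421), Slc2a4 (322), Gys1 (301), Gyg (249), Hk2 (173), Gpi1 (153) and Ppp1r3c (114). At the other end 8 members were below 10 TPM, namely Pfkl (9.83), Pgm1 (6.33), Slc2a1 (6.13), Hk1 (5.80), Pfkfb4 (4.84), Pfkfb3 (4.75), Pfkp (2.81) and Slc16a3 (1.99). Within each pair of isozymes the form known from muscle was the abundant one, Pfkm over Pfkl and Pfkp, Eno3 over Eno1, Pgam2 over Pgam1 and Hk2 over Hk1. For lactate dehydrogenase, Ldhb, the heart form, was above Ldha, the form of fast muscle. No skeletal muscle, fast fiber or slow fiber marker was at 0 in any of the 62 mice.

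The start regions of 6 members that were called in the comparisons below are shown. Ppp1r3c, Gyg, Pfkfb4 and Ldha were higher in cachectic mice and Phkg1 and Eno3 lower. Those of Pfkm, Pkm and Pgm2, also called lower, are not shown. Each is a RefSeq window of 300 bases on build GRCm38.p6, from 250 bases before to 50 bases after the start, written 5′ to 3′ on the strand of the gene. Capitals mark the letters CACGTG, the E-box, ACGTG and GCGTG, which are cores of hypoxia response elements, and AGAACA, a core of glucocorticoid response elements, read on both strands (their reverse complements are in capitals too). ACGTG lies within CACGTG and both are counted there.
Ppp1r3c, chr19:36736555-36736854, minus strand: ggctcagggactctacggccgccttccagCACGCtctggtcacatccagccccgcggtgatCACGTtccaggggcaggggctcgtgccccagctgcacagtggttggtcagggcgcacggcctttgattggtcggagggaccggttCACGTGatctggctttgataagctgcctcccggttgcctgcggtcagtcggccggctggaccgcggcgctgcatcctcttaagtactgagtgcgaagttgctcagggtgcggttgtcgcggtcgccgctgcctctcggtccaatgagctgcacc
Gyg, chr3:20155067-20155366, minus strand: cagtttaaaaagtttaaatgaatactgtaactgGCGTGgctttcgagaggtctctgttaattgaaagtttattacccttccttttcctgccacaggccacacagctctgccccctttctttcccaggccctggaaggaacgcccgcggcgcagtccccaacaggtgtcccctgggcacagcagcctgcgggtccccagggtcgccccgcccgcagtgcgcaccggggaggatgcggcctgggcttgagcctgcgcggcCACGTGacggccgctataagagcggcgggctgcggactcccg
Pfkfb4, chr9:108991652-108991951, plus strand: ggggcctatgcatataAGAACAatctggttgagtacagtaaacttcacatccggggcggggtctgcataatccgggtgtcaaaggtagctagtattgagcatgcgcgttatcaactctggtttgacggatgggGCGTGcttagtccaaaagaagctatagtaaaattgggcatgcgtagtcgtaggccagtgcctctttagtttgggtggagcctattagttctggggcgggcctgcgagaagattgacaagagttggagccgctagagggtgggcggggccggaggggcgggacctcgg
Ldha, window 1 of 2, chr7:46845554-46845853, plus strand: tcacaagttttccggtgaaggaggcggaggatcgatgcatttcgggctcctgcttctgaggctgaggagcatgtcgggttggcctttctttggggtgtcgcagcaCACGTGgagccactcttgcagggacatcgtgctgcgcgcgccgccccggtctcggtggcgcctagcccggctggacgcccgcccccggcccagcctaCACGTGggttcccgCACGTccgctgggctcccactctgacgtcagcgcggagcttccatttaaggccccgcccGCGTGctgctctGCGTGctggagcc
Phkg1, chr5:129879039-129879338, minus strand: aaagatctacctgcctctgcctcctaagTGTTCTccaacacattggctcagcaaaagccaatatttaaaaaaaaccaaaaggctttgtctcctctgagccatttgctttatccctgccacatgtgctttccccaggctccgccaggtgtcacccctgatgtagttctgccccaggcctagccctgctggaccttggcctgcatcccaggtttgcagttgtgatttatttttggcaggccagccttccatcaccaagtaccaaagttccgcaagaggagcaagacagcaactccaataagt
Eno3, chr11:70656926-70657225, plus strand: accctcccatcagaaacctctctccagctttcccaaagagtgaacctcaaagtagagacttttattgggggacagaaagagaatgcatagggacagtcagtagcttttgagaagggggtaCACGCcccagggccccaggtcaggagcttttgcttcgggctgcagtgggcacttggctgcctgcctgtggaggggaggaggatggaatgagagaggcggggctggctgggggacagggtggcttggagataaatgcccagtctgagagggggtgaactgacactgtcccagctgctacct

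The windows of Ppp1r3c, Gyg and Ldha held an E-box, at base -104 from the start in Ppp1r3c, at base 8 in Gyg, and at bases -145 and -48 in Ldha. The windows of Pfkfb4, Phkg1 and Eno3 held none. Of the called members not shown, all lower at 8 weeks, Pfkm held an E-box at base -136, and Pkm and Pgm2 held none. The E-box thus did not separate the members that rose from those that fell. RefSeq windows were found for 35 of the 37 members, 50 windows in all, some of which overlap. Over these 50 windows 7 held CACGTG (14%), beside 7.15% of all 32851 windows in the table, and the 7 belonged to Pfkm, Pfkfb3, Fbp2, Ldha, Slc16a1, Gyg and Ppp1r3c. ACGTG stood in 23 of the 50 (46.0%, against 19.6% of all windows), GCGTG in 24 (48.0%, against 32.4%) and AGAACA in 10 (20%, against 19.0%). GTAAACA, the FoxO site, stood in 0 of the 50 (3.65% of all windows), and TAAAAATA, the MEF2 core, in 1, that of Pgam2 (2.0%, against 2.72%). These are matches of letters only, and no binding was measured.

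Some libraries stood apart from the others, and results are given with and without them. Only 15069 to 16389 genes were above 0 in 4 libraries, against 17909 to 19057 in the other 58. At 2 weeks these were cachectic replicates 3 and 4 and 1 non-cachectic mouse (replicate 5), and at 8 weeks replicate 3 of the cachectic mice. Genes of the mitochondrial genome took 54.4 to 61.5% of TPM in these 4, against 32.5 to 50.1%, and the 37 members took 0.847 to 1.06%, against 1.12 to 1.74%. Cachectic replicate 3 at 8 weeks had the lowest of all 62 values for 18 of the 37 members, and the highest for Ldhb. Another 4 libraries, control replicates 2, 4 and 5 at 2 weeks and cachectic replicate 5 at 6 weeks, carried liver RNA, with summed liver markers up to 21325 TPM against a median of 80.9 TPM over all mice. Smaller raised sums stood in cachectic replicate 1 at 2 weeks (2759 TPM) and cachectic replicate 2 at 8 weeks (2039 TPM). Control replicate 1 at 4 weeks had 1569 TPM. These were kept when the 4 libraries with liver RNA were left out. In whole tissue, fewer cells of a type and less RNA per cell cannot be told apart.

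Differences are reported as log2 fold changes on the log2(TPM + 1) scale with their standard errors, from 1 limma fit over all 62 mice, and a gene was called at an adjusted p under 0.05, with Benjamini-Hochberg adjustment over the 13578 genes. The comparisons with cachectic mice at 6 and 8 weeks asked how the tissue differs at the later weeks, and those at 2 and 4 weeks how early differences appear. In the paper the decline in myofiber size was a trend at 6 weeks and significant at 8 weeks. Each tumor group was set against the same controls, and the cachectic mice enter both of their comparisons, so the comparisons are not independent. At 6 weeks 3 members were higher and 0 lower in cachectic than in control diaphragms, whereas over all genes 5.62% were called higher and 1.17% lower. At 8 weeks 1 member was higher and 5 were lower, where 6.65% of all genes were called higher and 8.12% lower. The genes that rose were Ppp1r3c, Pfkfb4 and Ldha at 6 weeks and Ppp1r3c at 8 weeks, and those that fell at 8 weeks were Phkg1, Pkm, Pfkm, Pgm2 and Eno3.

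**Figure D1:**
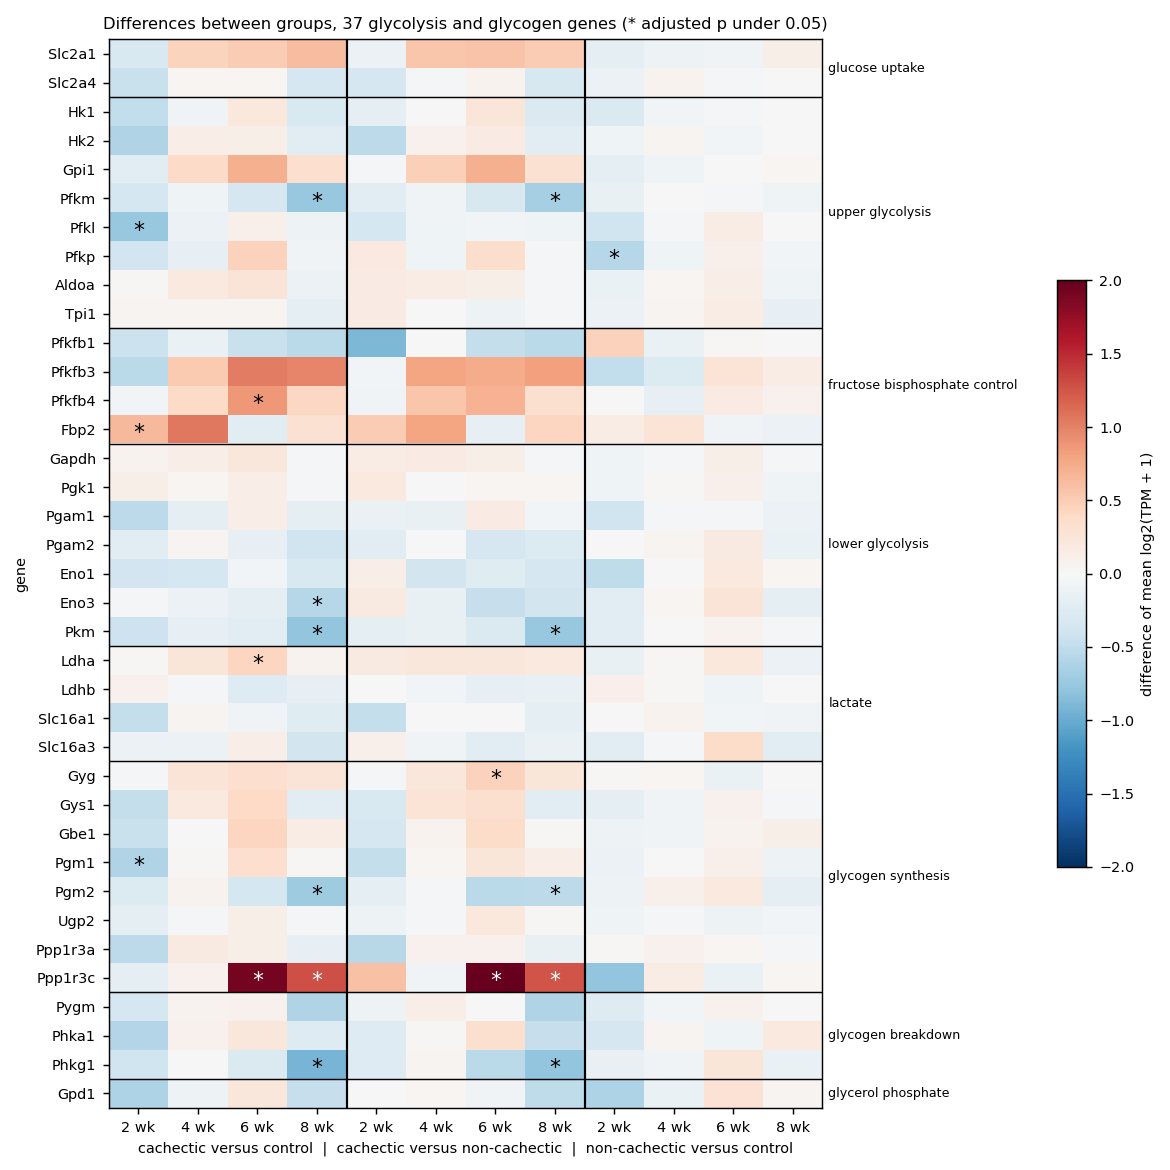
Differences of mean log2(TPM + 1) for the 37 members (rows, ordered by role) in 12 comparisons (columns: cachectic versus control, cachectic versus non-cachectic and non-cachectic versus control at 2, 4, 6 and 8 weeks). Red is higher and blue lower in the group named before "versus", the color scale ends at 2, and an asterisk marks an adjusted p under 0.05. Ppp1r3c is the darkest red at 6 weeks (1.91 versus control), and Phkg1, Pkm, Pfkm, Pgm2 and Eno3 are blue with asterisks at 8 weeks.

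Glycogen synthesis held the member with the widest difference. Ppp1r3c encodes the targeting subunit that brings protein phosphatase 1 to glycogen, where it activates glycogen synthase and restrains phosphorylase (GRCm38 19:36731731-36736653, minus strand). At 6 weeks the 5 cachectic mice had 383, 292, 900.2, 159.5 and 208 TPM, the non-cachectic mice 75.6, 70.1, 92.7, 91.2 and 60.3 TPM, and the controls 117, 50.2, 104, 124 and 56.0 TPM. Every cachectic mouse was above every mouse of both other groups, although the cachectic values themselves spread widely (388 ± 298 TPM, SD, n = 5, against 90.4 ± 34.9 in controls, n = 5). The log2 fold change was 1.91 (SE 0.47, limma adjusted p = 0.00752) against controls and 2.04 (SE 0.47, adjusted p = 0.0043) against non-cachectic mice. Both calls held in all 10 other settings tried in limma and without each mouse in turn.

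At 8 weeks Ppp1r3c ranged in cachectic mice from 48.0 through a median of 355 to 702 TPM (n = 7), in non-cachectic mice it had 118, 131, 108, 95.3 and 97.8 TPM, and in controls 131, 156, 100.4, 111 and 60.0 TPM. Of the 7 cachectic mice 6 were above every control, and the exception was replicate 3, the library with few genes. The log2 fold change was 1.29 (SE 0.44, limma adjusted p = 0.0371) against controls and 1.25 (SE 0.44, adjusted p = 0.0485) against non-cachectic mice. These 8-week calls are less firm. Against controls the call was lost with no filter on low values (limma adjusted p = 0.0555), with the replicate number as a block (adjusted p = 0.139), with only the groups compared in the fit (adjusted p = 0.245) and in 7 of the 12 fits that left out 1 mouse, namely cachectic replicates 4, 5, 6 or 7 or control replicates 3, 4 or 5 (adjusted p from 0.00139 to 0.129 over the 12). Without the 4 libraries with few genes it was 1.69 (SE 0.41, adjusted p = 0.00103). Against non-cachectic mice the call was lost in 5 of 10 other settings (a pseudocount of 0.1, no filter, the replicate block at limma adjusted p = 0.162, only the groups compared at 0.264, and the libraries with liver RNA left out), and it was kept in 1 of the 12 fits that left out 1 mouse, that without cachectic replicate 3.

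Gyg encodes glycogenin, the protein primer on which glycogen starts (GRCm38 3:20122084-20155317, minus strand). At 6 weeks its levels were 371, 340.1, 315, 357 and 288 TPM in cachectic, 221, 250.1, 257, 224 and 252 TPM in non-cachectic and 264, 277, 255, 290.5 and 239.6 TPM in control mice. All 5 cachectic mice were above every non-cachectic mouse, and 4 of 5 above every control. Gyg was called against non-cachectic mice, with a log2 fold change of 0.47 (SE 0.14, limma adjusted p = 0.0285), but not against controls, where it was 0.33 (adjusted p = 0.146). The call was lost under median-ratio scaling and in 5 of 10 fits without 1 mouse (cachectic replicates 1, 2 or 4 or non-cachectic replicates 1 or 4). At 8 weeks the cachectic values ran from 157 through 310.3 to 423 TPM against 240.0 to 278 TPM in controls, and again all but replicate 3 were above every control (log2 fold change 0.26, adjusted p = 0.171, and 0.42, adjusted p = 1.68e-05, without the libraries with few genes).

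Pgm2, named for phosphoglucomutase, which links glucose 1-phosphate of glycogen to glucose 6-phosphate of glycolysis, went the other way. Its levels at 6 weeks were 155, 150.1, 171, 170.1 and 153 TPM in cachectic and 184, 182, 218, 187 and 257 TPM in control mice, with no overlap. At 8 weeks the cachectic mice had 84.6, 129 and 199 TPM as lowest, median and highest, the non-cachectic mice 173, 244, 156, 242 and 197 TPM and the controls 220.4, 247, 224, 194 and 260.4 TPM, so that 5 of 7 cachectic mice were below every control. The log2 fold change at 8 weeks was -0.71 (SE 0.18, limma adjusted p = 0.00372) against controls and -0.52 (SE 0.18, adjusted p = 0.0463) against non-cachectic mice. The call against non-cachectic mice is not firm. It was lost in 4 of 10 other settings (no filter on low values, array quality weights, only the groups compared, and the libraries with liver RNA left out) and in 7 of 12 fits without 1 mouse (cachectic replicates 1, 2, 3 or 6 or non-cachectic replicates 2, 4 or 5). The symbols Pgm1 and Pgm2 have been exchanged between mouse annotation releases, and the release behind the table is not given in the sources used here, so which locus each row stands for cannot be told. Pgm1, the scarcer row, was not called at 6 weeks (log2 fold change 0.34) or 8 weeks (0.03).

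The other glycogen synthesis genes were Gys1, muscle glycogen synthase, Gbe1, the branching enzyme, Ugp2, which makes UDP-glucose, and Ppp1r3a, another phosphatase targeting subunit. None was called at 6 or 8 weeks in the fit of all mice. Gys1 at 6 weeks had 468, 405, 372, 427 and 321 TPM in cachectic mice, each above the control range of 293 to 315 TPM (log2 fold change 0.39, limma adjusted p = 0.587). Gbe1 was likewise above the control range of 49.7 to 59.0 TPM in all 5 cachectic mice, at 87.5, 88.6, 61.7, 67.9 and 63.7 TPM (log2 fold change 0.44, adjusted p = 0.19). At 8 weeks both overlapped the controls, with Gys1 from 37.5 to 504 TPM against 290.5 to 339 and Gbe1 from 24.3 to 104 TPM against 47.1 to 60.5, the lowest value in each being replicate 3. Of the 8 glycogen synthesis genes, 7 had a log2 fold change above 0 against controls at 6 weeks, and at 8 weeks 4 did with all libraries and 6 without those with few genes. Over all genes tested the median log2 fold change was itself 0.17 at 6 weeks. At 8 weeks it was -0.09 with all libraries and 0.06 without those with few genes. The values near 0 depended on the scaling: under median-ratio scaling Ugp2 and Ppp1r3a turned negative at 6 weeks (-0.08 and -0.07), as under the other scalings, and Ugp2 positive at 8 weeks (0.12), and Pgm1 turned negative at 8 weeks with TPM rescaled without mitochondrial genes (-0.07).

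**Figure D2:**
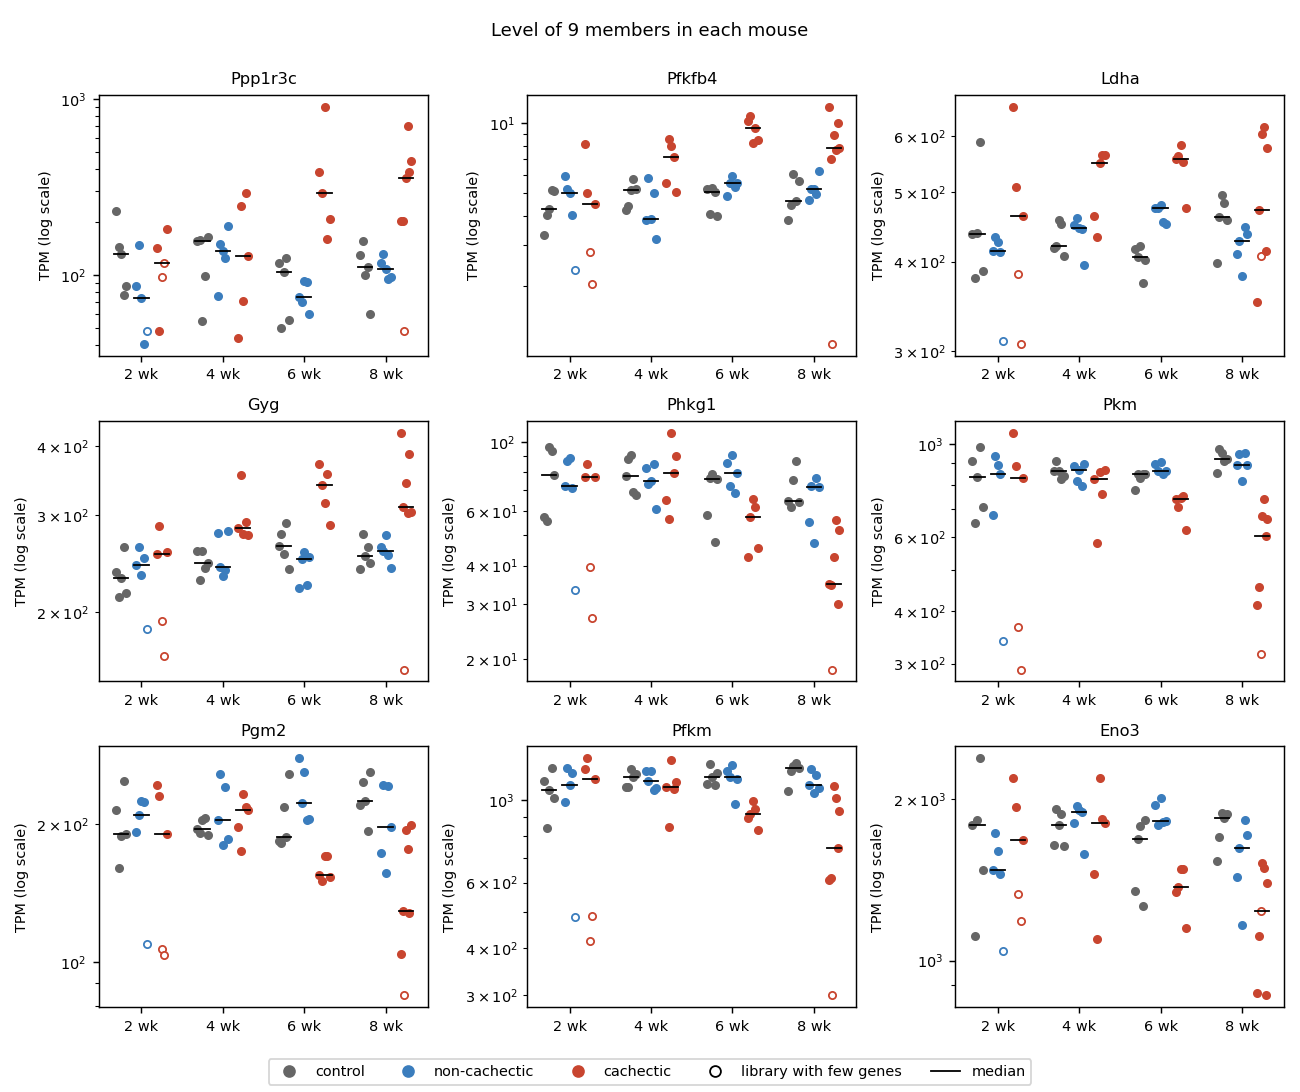
TPM (log axis) of the 9 members called at 6 or 8 weeks, in every mouse by group and week. Bars are medians, open symbols are the 4 libraries with few genes, and each point is 1 mouse. The 5 cachectic mice at 6 weeks stand above the controls for Ppp1r3c, Pfkfb4 and Ldha, and the 7 at 8 weeks below them for Phkg1, Pkm and Eno3.

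In glycogen breakdown the gene that fell was Phkg1, the catalytic subunit of muscle phosphorylase kinase, the enzyme that switches phosphorylase on (GRCm38 5:129863421-129898549, minus strand). At 8 weeks its levels were 18.5, 34.9 and 55.9 TPM in cachectic mice (lowest, median, highest), 55.3, 72.0, 47.3, 76.4 and 71.4 TPM in non-cachectic mice and 64.7, 61.9, 75.5, 86.4 and 64.2 TPM in controls. All 7 cachectic mice were below every control and 5 were below every non-cachectic mouse. The mean was 38.4 ± 12.9 TPM (SD, n = 7) against 70.5 ± 10.3 TPM (n = 5), a log2 fold change of -0.92 (SE 0.23, limma adjusted p = 0.00258), and -0.78 (SE 0.23, adjusted p = 0.0127) against non-cachectic mice. At 6 weeks the cachectic mice had 42.6, 57.5, 65.5, 61.9 and 45.4 TPM and the controls 58.3, 76.5, 78.9, 47.6 and 75.7 TPM, which overlap, and the gene was not called.

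Pygm, muscle glycogen phosphorylase, the enzyme that releases glucose 1-phosphate from glycogen, was also below every control in all 7 cachectic mice at 8 weeks. Its values there were 265, 1069 and 1227 TPM (lowest, median, highest) against 1234, 1421, 1329, 1403 and 1310.5 TPM. It missed the threshold with a log2 fold change of -0.60 (limma adjusted p = 0.0859), and was called without the libraries with few genes at -0.32 (adjusted p = 0.0248). At 6 weeks its groups overlapped, from 1035 to 1409 TPM against 1041 to 1359 TPM. Phka1, a regulatory subunit of phosphorylase kinase, overlapped the controls in both weeks, with log2 fold changes of 0.23 at 6 weeks and -0.26 at 8 weeks. All 3 breakdown genes were below 0 at 8 weeks, with a median of -0.60 beside -0.09 over all genes tested, and they stayed below 0 under all 3 other scalings, but without the libraries with few genes Phka1 was at 0.03.

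Upper glycolysis had 1 call, Pfkm, the muscle form of phosphofructokinase, which catalyzes the committed and most tightly regulated step (GRCm38 15:98092589-98132451, plus strand). At 6 weeks the cachectic mice had 895, 914, 995, 945 and 829 TPM and the controls 1105, 1251, 1154, 1095 and 1184 TPM, with no overlap but no call. At 8 weeks the cachectic values were 299, 742 and 1091 TPM (lowest, median, highest), the non-cachectic 1096, 1211, 1039.8, 1164 and 1074 TPM and the controls 1055, 1195, 1235, 1257 and 1213 TPM. All cachectic mice but replicate 4 were below every control. This was a log2 fold change of -0.75 (SE 0.21, limma adjusted p = 0.00909) against controls and -0.66 (SE 0.21, adjusted p = 0.0267) against non-cachectic mice, and -0.55 against controls without the libraries with few genes. The call against non-cachectic mice was lost in 5 of 12 fits without 1 mouse (cachectic replicates 1, 2 or 3 or non-cachectic replicates 2 or 4).

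Gpi1, glucose 6-phosphate isomerase, moved the opposite way from Pfkm without reaching the threshold. At 6 weeks it had 336, 234, 228, 282 and 204 TPM in cachectic mice, 155, 140.1, 171, 147 and 162 TPM in non-cachectic mice and 149.9, 173, 155, 142 and 151 TPM in controls. Every cachectic mouse was above every other mouse of that week (log2 fold change 0.71, limma adjusted p = 0.0798, and 3.31e-06 without the libraries with few genes). At 8 weeks replicate 3 had 55.3 TPM and the other 6 cachectic mice 198 to 337 TPM, against 146 to 171 TPM in controls (log2 fold change 0.34, adjusted p = 0.388, and 0.64, adjusted p = 3.22e-06, without those libraries). Pfkp, the platelet form of phosphofructokinase, had 4.07, 4.45, 3.90, 3.42 and 2.94 TPM in cachectic mice at 6 weeks, each above the control range of 2.14 to 2.81 TPM (log2 fold change 0.46, adjusted p = 0.0984), and overlapped the controls at 8 weeks. The remaining genes of this step, the hexokinases Hk1 and Hk2, the liver form of phosphofructokinase Pfkl, aldolase Aldoa and the isomerase Tpi1, were not called at 6 or 8 weeks, with log2 fold changes of 0.05 to 0.25 at 6 weeks and -0.31 to -0.10 at 8 weeks. At 8 weeks 7 of the 8 upper genes were below 0 with replicate 3 in the fit and 2 of 8, Pfkm and Tpi1, without the libraries with few genes. Under median-ratio scaling Aldoa (0.04), Pfkl (0.03) and Pfkp (0.04) were above it, and under quantile normalization Pfkl (0.01) and Pfkp (0.08).

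Lower glycolysis had 2 calls at 8 weeks. Pkm encodes pyruvate kinase of muscle, the step that ends glycolysis and yields ATP (GRCm38 9:59656368-59679375, plus strand). Its 8-week levels were 316, 603 and 741 TPM in cachectic mice (lowest, median, highest), 892, 946, 818, 953 and 891 TPM in non-cachectic mice and 852, 973, 952, 909 and 920.4 TPM in controls. The 7 cachectic mice were below all 10 others (552 ± 157 TPM, SD, n = 7, against 921 ± 46.2 TPM in controls, n = 5). Pkm had a log2 fold change of -0.79 (SE 0.20, limma adjusted p = 0.00388) against controls and -0.76 (SE 0.20, adjusted p = 0.00662) against non-cachectic mice. Pkm was the 1 member whose 8-week call against controls held in all 10 other settings tried in limma. At 6 weeks the cachectic mice had 741, 707, 744, 752 and 625 TPM against 779, 849, 828, 849 and 846 TPM in controls, again without overlap, but with no call. The table gives 1 value for the gene, so its spliced forms M1 and M2 were not separated.

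Eno3, the muscle enolase (GRCm38 11:70657202-70662513, plus strand), had 862, 1234 and 1516 TPM in cachectic mice at 8 weeks (lowest, median, highest), 1429.8, 1621, 1164, 1826 and 1711 TPM in non-cachectic mice and 1533, 1696, 1882, 1840.3 and 1877 TPM in controls. All 7 cachectic mice were below every control, while 4 of 7 overlapped the non-cachectic range. The log2 fold change against controls was -0.57 (SE 0.15, limma adjusted p = 0.00689), and against non-cachectic mice it was not called (-0.37, adjusted p = 0.109). The call against controls was lost under median-ratio scaling. Against controls, the 8-week calls of Eno3, Phkg1, Pfkm and Pgm2 were also lost when the fit held only the groups compared, and held without each mouse in turn. Against non-cachectic mice, those of Phkg1, Pkm, Pfkm and Pgm2 were lost with only the groups compared, and those of Phkg1 and Pkm held without each mouse in turn.

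The other 5 genes of lower glycolysis were Gapdh, Pgk1, Pgam1, Pgam2 and Eno1, and none was called at 6 or 8 weeks. Their log2 fold changes ran from -0.16 (Pgam2) to 0.23 (Gapdh) at 6 weeks and from -0.39 (Pgam2) to -0.04 (Gapdh and Pgk1) at 8 weeks. At 8 weeks all 7 lower glycolysis genes were below 0 against controls, with and without the libraries with few genes, with a median of -0.31 beside -0.09 over all genes, although Gapdh (0.12) and Pgk1 (0.11) were above 0 under median-ratio scaling. Gapdh and Pgk1, often used as reference genes, had nearly the same range in cachectic as in control mice at 8 weeks, 746 to 998 TPM against 798 to 971 TPM and 389 to 470.2 TPM against 397 to 467 TPM. Gapdh, Ldha, Pgam1, Pgk1, Aldoa and Eno1 have near-identical copies elsewhere in the genome, and since the handling of reads that match several places is not given in the sources used here, their levels are uncertain.

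Fructose 2,6-bisphosphate, made and removed by the Pfkfb enzymes, is the strongest activator of phosphofructokinase. Pfkfb4 is 1 of these bifunctional enzymes (GRCm38 9:108991778-109032228, plus strand). At 6 weeks it had 10.2, 10.7, 8.22, 9.49 and 8.47 TPM in cachectic, 4.85, 5.52, 5.93, 5.32 and 5.55 TPM in non-cachectic and 5.24, 4.09, 5.28, 5.04 and 4.02 TPM in control mice. Every cachectic mouse was above every mouse of the other groups. Pfkfb4 had a log2 fold change of 0.86 against controls (SE 0.25, limma adjusted p = 0.0239). This call was kept in all 10 other settings tried in limma but lost in 4 of 10 fits without 1 mouse (cachectic replicates 1 or 2 or control replicates 2 or 5). Adjusted Dunn tests did not call it. At 8 weeks the cachectic mice had 1.14, 7.78 and 11.7 TPM (lowest, median, highest) against 3.85 to 6.04 TPM in controls, with all but replicate 3 above every control (log2 fold change 0.42, adjusted p = 0.246, and 0.73, adjusted p = 1.4e-05, without the libraries with few genes).

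Pfkfb3, the form with the highest ratio of kinase to phosphatase activity, was higher on average but scattered. Its 6-week values were 18.2, 11.6, 6.27, 16.6 and 6.63 TPM in cachectic mice and 7.59, 5.41, 4.58, 2.81 and 4.79 TPM in controls. At 8 weeks cachectic mice ran from 2.42 through 9.58 to 49.8 TPM against 4.47 to 7.07 TPM. Neither week was called (log2 fold changes 1.02 and 0.97, limma adjusted p = 0.13 and 0.0803), and without the libraries with few genes the 8-week difference was 1.29 (adjusted p = 0.00373). Pfkfb1, the form of liver and muscle, had negative values of -0.45 and -0.54 (adjusted p = 0.222 and 0.0587).

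Fbp2, the muscle fructose bisphosphatase, which opposes phosphofructokinase, stood out at 4 weeks. The cachectic mice then had 45.6, 65.8, 66.4, 79.9 and 74.8 TPM, the non-cachectic 36.1, 43.0, 33.1, 41.2 and 35.6 TPM and the controls 21.8, 32.8, 44.2, 37.02 and 24.2 TPM. All cachectic mice were above the other 10, with a log2 fold change of 1.05 that missed the threshold (limma adjusted p = 0.0784) and passed it without the libraries with few genes (adjusted p = 0.00723). At 6 weeks the cachectic range of 26.8 to 37.8 TPM overlapped that of the controls, 33.7 to 51.5 TPM, and at 8 weeks it was 20.7 to 71.2 against 32.1 to 39.4 TPM. The cachectic minus control difference of Fbp2 at 6 weeks less that at 4 weeks was -1.28 on the log2 scale (SE 0.33), with an unadjusted p of 0.000266 and an adjusted p of 0.413 in limma, so it was not called.

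Among the lactate genes Ldha rose and Ldhb had the opposite sign. Lactate dehydrogenase made of Ldha subunits favors lactate formation, and that made of Ldhb subunits favors lactate use. Ldha (GRCm38 7:46841475-46855627, plus strand) had at 6 weeks 556, 562, 582, 551 and 475 TPM in cachectic, 475, 475, 481, 455 and 452 TPM in non-cachectic and 417, 406, 421, 373 and 403 TPM in control mice. All cachectic mice were above every control, and so were all 5 non-cachectic mice. The log2 fold change of cachectic against control mice was 0.43 (SE 0.13, limma adjusted p = 0.0314), and this call was lost under median-ratio scaling, quantile normalization and rescaling without mitochondrial genes, and in 7 of 10 fits without 1 mouse (cachectic replicates 1, 2, 3 or 4 or control replicates 2, 4 or 5). At 8 weeks cachectic mice ran from 351 through 472 to 617 TPM against 398 to 496 TPM in controls.

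Ldhb at 6 weeks had 1378, 1311, 1471, 1519 and 1441 TPM in cachectic mice and 1725, 1750.3, 1525, 1771 and 1758 TPM in controls, without overlap (log2 fold change -0.26, limma adjusted p = 0.0811). The ratio of Ldhb to Ldha within a library does not depend on its scaling. It was 2.33 to 3.03 in cachectic mice at 6 weeks and 3.62 to 4.75 in controls, which on the log2 scale is a median of 1.34 against 2.11. The log2 ratios of the non-cachectic mice, from 1.68 to 1.88, overlapped those of the controls (1.86 to 2.25), with 4 of 5 below every control, and did not overlap those of the cachectic mice (1.22 to 1.60). At 8 weeks 4 of 7 cachectic mice were below every control (log2 1.16 to 2.26 against 1.48 to 2.05). Slc16a1 and Slc16a3, the monocarboxylate transporters that carry lactate, overlapped the controls in both weeks and were not called.

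**Figure D3:**
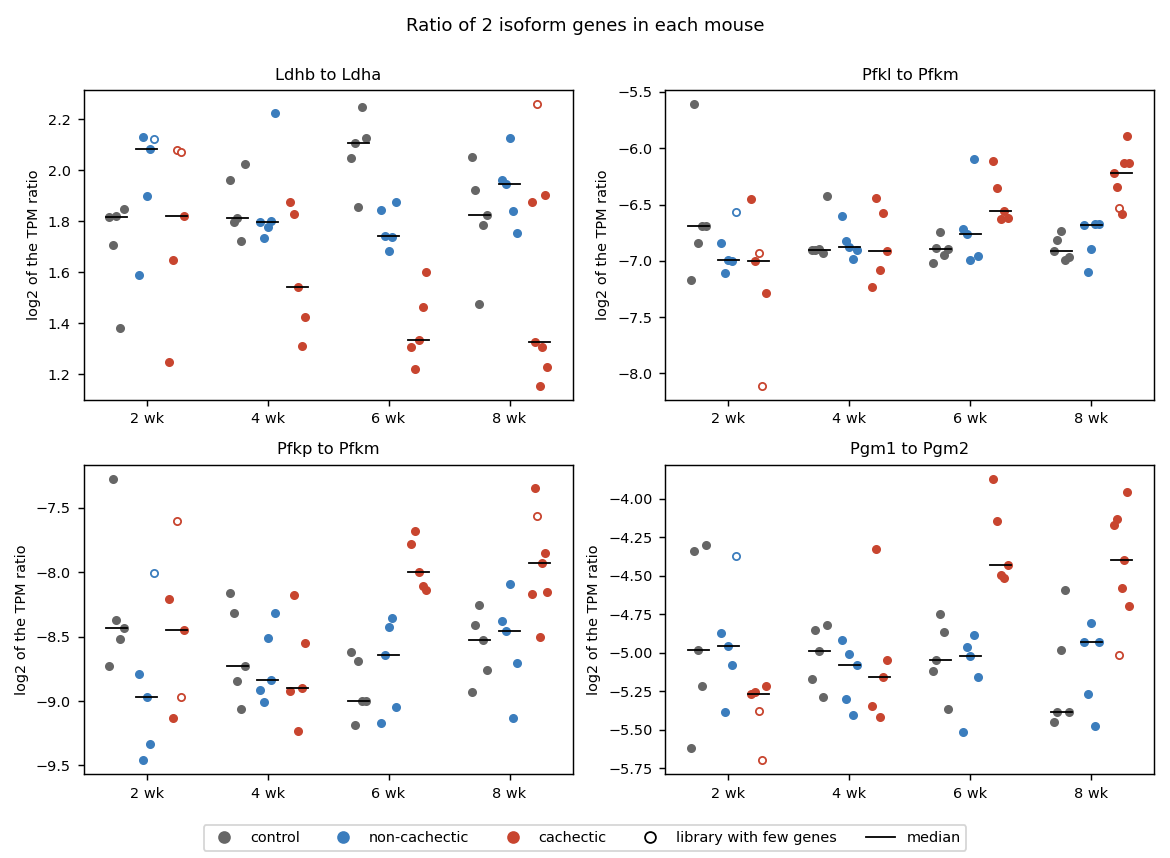
Log2 ratios of the TPM of isozyme pairs within each library, by group and week: Ldhb to Ldha, Pfkl to Pfkm, Pfkp to Pfkm and Pgm1 to Pgm2. Each point is 1 mouse, bars are medians, and open symbols are the libraries with few genes. Cachectic mice at 6 weeks lie below the controls for Ldhb to Ldha (1.22 to 1.60 against 1.86 to 2.25) and above them in the other panels.

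The same kind of ratio was taken for the other isozymes. Pfkl to Pfkm on the log2 scale was -6.63 to -6.11 in cachectic mice and -7.02 to -6.74 in controls at 6 weeks, and -6.58 to -5.89 against -6.99 to -6.73 at 8 weeks, so every cachectic mouse, replicate 3 included, had relatively more of the minor form. Pfkp to Pfkm was -8.14 to -7.68 against -9.19 to -8.62 at 6 weeks, and at 8 weeks 6 of 7 cachectic mice were above the controls. Pgm1 to Pgm2 was -4.51 to -3.87 against -5.36 to -4.74 at 6 weeks, with 5 of 7 cachectic mice above the controls at 8 weeks. Eno1 to Eno3 was above the controls in 6 of 7 cachectic mice at 8 weeks, and in 4 of 5 non-cachectic mice. The non-cachectic ratios of Pfkl to Pfkm, Pfkp to Pfkm and Pgm1 to Pgm2 overlapped those of the controls in both weeks. The ratios of Hk2 to Hk1, Pgam1 to Pgam2 and Slc16a1 to Slc16a3 overlapped.

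The glucose transporters were not called. Slc2a1, the transporter of basal uptake found in most cells, had 13.0, 8.60, 7.69, 9.76 and 7.88 TPM in cachectic mice at 6 weeks, each above the control values of 6.92, 6.78, 5.45, 6.70 and 5.38 TPM. Its log2 fold change was 0.50 (limma adjusted p = 0.315). At 8 weeks 6 of 7 cachectic mice were above every control, with 1.48, 11.1 and 23.0 TPM as lowest, median and highest against 5.10 to 6.82 TPM (0.62, adjusted p = 0.0997, and 0.98, adjusted p = 5.66e-07, without the libraries with few genes). Slc2a4, the insulin-responsive transporter of muscle, overlapped the controls in both weeks, at log2 fold changes of 0.04 and -0.33, the latter being -0.00 without those libraries. Gpd1 also overlapped the controls, at 0.22 and -0.46.

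Counted by range, 12 of the 37 members (32.4%) had every cachectic mouse outside the control range at 6 weeks, where 18.9% of all genes did. Of these 8 were above it (Gbe1, Gpi1, Gys1, Ldha, Pfkfb4, Pfkp, Ppp1r3c and Slc2a1) and 4 below it (Ldhb, Pfkm, Pgm2 and Pkm). At 8 weeks 4 members (10.8%) were outside, all below (Eno3, Phkg1, Pkm and Pygm), where 6.34% of all genes were outside. A further 5 members had 6 of 7 cachectic mice above every control at 8 weeks, Gpi1, Gyg, Pfkfb4, Ppp1r3c and Slc2a1, and in each the exception was replicate 3. The share of all genes that meet this looser rule was not counted. Past a log2 fold change of 1, Ppp1r3c was called at 6 and at 8 weeks, beside 1.29% and 1.33% of all genes called higher past that size.

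The median log2 fold change of the 37 members was 0.13 at 6 weeks, with 26 above and 11 below 0, and -0.18 at 8 weeks, with 10 above and 27 below 0. Without the libraries with few genes the 8-week median was -0.00, with 18 above and 19 below 0, and the 8 members that turned positive were Hk1 (0.05), Hk2 (0.16), Pfkl (0.11), Pfkp (0.02), Aldoa (0.03), Gys1 (0.24), Ugp2 (0.11) and Phka1 (0.03). Over all genes tested the medians with all libraries were 0.17 and -0.09. Median-ratio scaling moved the median of all genes to 0.01 in both weeks and that of the members to -0.06 and -0.02. The split of calls moved with it: at 6 weeks median-ratio scaling and quantile normalization each called 3 members higher and 3 lower, and rescaling without the mitochondrial genes 2 and 2. At 8 weeks median-ratio scaling called 6 higher and 5 lower, quantile normalization 4 and 10, and rescaling without mitochondrial genes 1 and 10. Over all genes tested (13578, 13578 and 13565), these scalings in that order called 467, 530 and 382 higher at 6 weeks. They called 545, 729 and 455 lower. At 8 weeks they called 1620, 1479 and 746 higher and 1651, 1952 and 2869 lower. As a share of TPM outside the mitochondrial genes, the members took 2.01 to 2.58% in cachectic mice at 8 weeks, against 2.67 to 2.93% in controls and 2.46 to 2.84% in non-cachectic mice, so that every cachectic mouse was below every control. At 6 weeks this share overlapped, at 2.33 to 2.62% in cachectic mice against 2.52 to 2.85% in controls. As a share of all TPM the members also overlapped at 8 weeks, at 0.906 to 1.61% against 1.41 to 1.58%. The mitochondrial genes moved with the groups too. At 6 weeks they took 34.3 to 44.90% of TPM in cachectic mice, below the control range of 44.92 to 47.9%, and at 8 weeks a median of 38.7% against 44.2%, with 5 of 7 cachectic mice below every control and replicate 3 above them. The part of this share in the members' TPM was not tested beyond the rescaling.

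Leaving out the 4 libraries with few genes gave more called members at 4, 6 and 8 weeks and fewer at 2 weeks (0 against controls). At 6 weeks 13 members were then called higher and 3 lower, where 26.9% of all genes were called higher and 4.29% lower. The 13 were Ppp1r3c, Pfkfb3, Pfkfb4, Gpi1, Slc2a1, Pfkp, Gbe1, Ldha, Gys1, Pgm1, Gyg, Aldoa and Gapdh, and the 3 were Pfkm, Pgm2 and Ldhb. At 8 weeks 7 were called higher and 10 lower, where 22.2% of all genes were called higher and 12.4% lower. The 7 were Ppp1r3c (1.69), Pfkfb3 (1.29), Slc2a1 (0.98), Pfkfb4 (0.73), Gpi1 (0.64), Gyg (0.42) and Gbe1 (0.35). The 10 were Phkg1 (-0.77), Pkm (-0.67), Pgm2 (-0.59), Eno3 (-0.58), Pfkm (-0.55), Pfkfb1 (-0.51), Eno1 (-0.33), Pygm (-0.32), Tpi1 (-0.26) and Ldhb (-0.23).

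**Figure D4:**
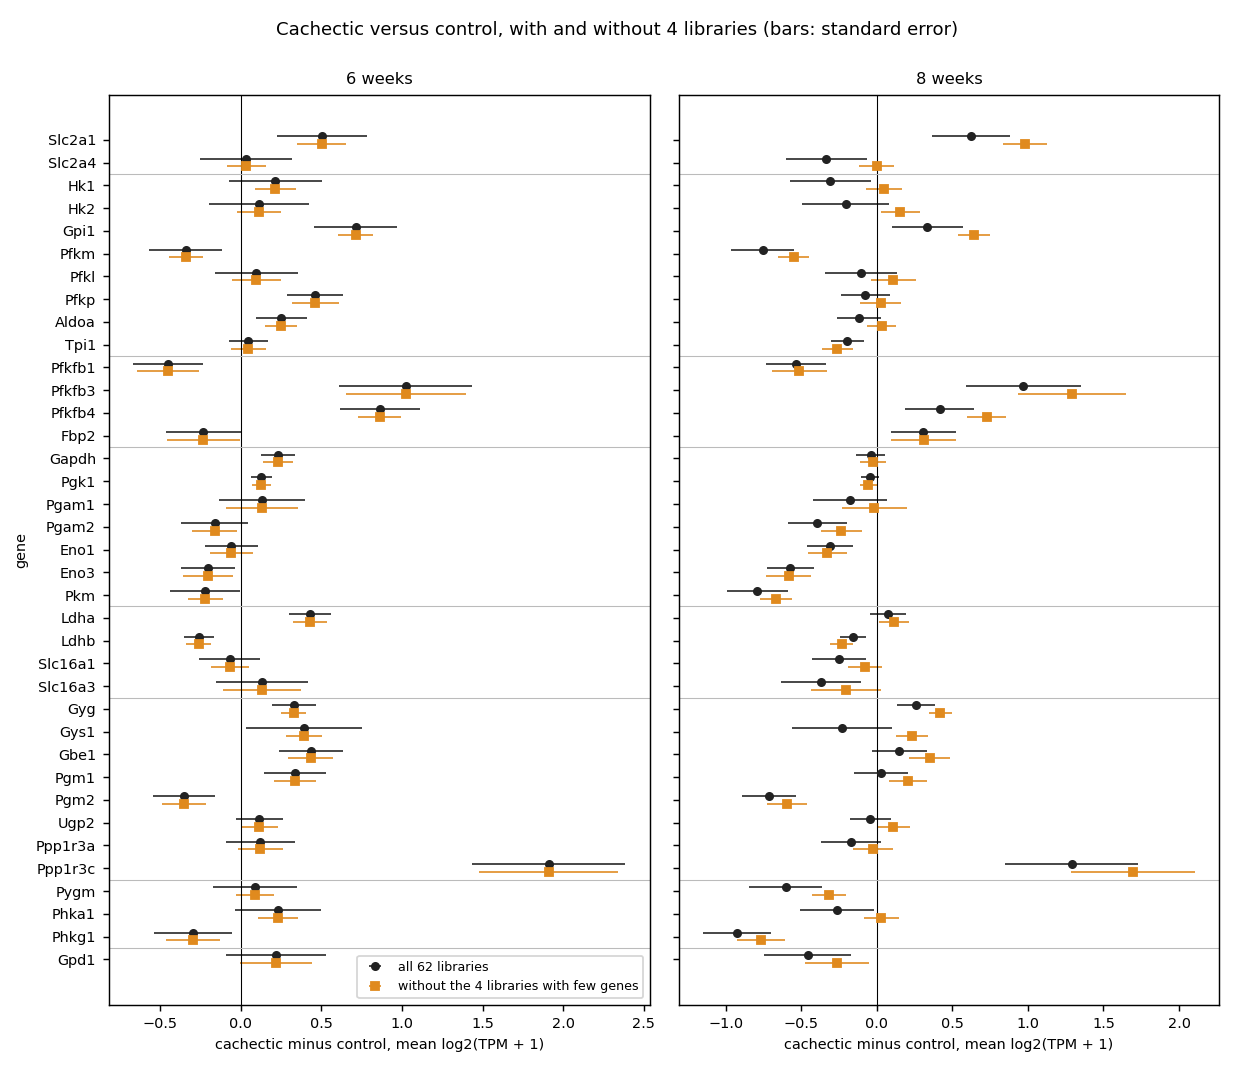
Log2 fold changes (cachectic minus control, log2(TPM + 1) scale) of the members at 6 and 8 weeks, with all 62 libraries and without the 4 libraries with few genes. Bars are standard errors from limma. The bars of all 37 members are shorter without the 4 libraries, and at 8 weeks the points move up for Slc2a1 (0.62 to 0.98) and Gpi1 (0.34 to 0.64).

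Against non-cachectic mice 2 members were called higher at 6 weeks and 0 lower, where 4.28% of all genes were called higher and 1.57% lower. At 8 weeks 1 was called higher and 4 lower, where 6.75% of all genes were called higher and 6.19% lower. These were Ppp1r3c and Gyg at 6 weeks, and Ppp1r3c, Phkg1, Pkm, Pfkm and Pgm2 at 8 weeks, with the values given above. The non-cachectic tumor alone gave 0 calls among the members in limma at 4, 6 and 8 weeks, where 0% of all genes were called in each week. At an unadjusted p under 0.05 there were 0 members in each of these 3 weeks, and 68, 100 and 55 of all genes.

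At 2 weeks 1 member was called higher and 2 lower in cachectic against control mice, where 1.41% of all genes were called higher and 27.8% lower. Fbp2 was higher (log2 fold change 0.65, SE 0.23, limma adjusted p = 0.0345), and Pfkl (-0.75, SE 0.26, adjusted p = 0.0293) and Pgm1 (-0.60, SE 0.19, adjusted p = 0.0222) were lower. All 3 calls were lost without the 4 libraries with few genes, 2 of which are cachectic mice of this week, and without the 4 libraries with liver RNA, 3 of which are its controls. Each was also lost without cachectic replicate 3 or 4 or control replicate 2 or 5 alone, that of Fbp2 also without cachectic replicate 1 and that of Pfkl without control replicate 4. Over the 10 other settings the log2 fold change of Fbp2 was 0.62 or more, whereas that of Pfkl was -0.09 without the libraries with few genes and that of Pgm1 -0.07 under quantile normalization. In non-cachectic against control mice Pfkp was lower at 2 weeks (1.97 ± 0.222 TPM against 3.51 ± 1.11 TPM, SD, n = 5 each, log2 fold change -0.57, limma adjusted p = 0.0416), where 0.0147% of all genes were called higher and 4.42% lower. The Pfkp call was lost in 5 of 10 other settings (a pseudocount of 0.1, median-ratio scaling, quantile normalization, only the groups compared, and the libraries with liver RNA left out). It was also lost in 7 of 10 fits without 1 mouse (control replicates 2, 4 or 5 or non-cachectic replicates 2, 3, 4 or 5). Against non-cachectic mice at 2 weeks 0 members and 0% of all genes were called, with 6 members and 1709 genes at an unadjusted p under 0.05.

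At 4 weeks limma called 0 members in cachectic against control mice and 0 against non-cachectic mice, where 0.0221% and 0.0295% of all genes were called. At an unadjusted p under 0.05 there were 2 members against controls and 3 against non-cachectic mice, and 728 and 697 of all genes. Besides Fbp2, Gpi1 and Gyg had all 5 cachectic mice above every control at 4 weeks. The share of all genes outside the control range was not counted at 4 weeks. For Gpi1 the cachectic values were 185, 243, 200.5, 218 and 191 TPM and the control values 146, 161, 162, 148 and 171 TPM. Without the libraries with few genes Fbp2 (1.05) and Gpi1 (0.39) were called higher at 4 weeks, where 1.52% of all genes were called higher and 0.324% lower.

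A call in 1 week and not in another does not show a difference between the weeks. The difference of differences (cachectic minus control, compared between weeks) was called for 0 members and 0% of all genes for 6 against 4 weeks, 8 against 4 weeks and 8 against 6 weeks in limma. At an unadjusted p under 0.05 there were 3, 6 and 2 members and 506, 1022 and 580 of all genes. For Ppp1r3c the difference was 1.83 larger at 6 than at 4 weeks (SE 0.67, unadjusted p = 0.00864, limma adjusted p = 1.00). Control mice at 8 against 4 weeks gave 0 called members and 0% of all genes, with 0 members and 120 genes at an unadjusted p under 0.05.

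Markers of fiber and cell types also differed between the groups. Over all genes, 5.62% were called higher and 1.17% lower against controls at 6 weeks, and 6.65% and 8.12% at 8 weeks. The summed fast fiber markers (11 genes, none at 0 in any mouse) were 52003 to 69810 TPM in cachectic mice at 6 weeks against 42091 to 52212 TPM in controls, with 3 of 11 called higher and 0 lower. At 8 weeks they were 46514 to 68382 TPM against 44189 to 51968 TPM, with 2 of 11 higher and 1 lower. Among them the 8-week means of Myh2, Myh4, Actn3 and Pvalb (303 against 845 TPM) were below those of controls. The means of the others were above, such as Myh1 (8170 against 4803 TPM). The summed slow fiber markers overlapped at 6 weeks (3464 to 4937 against 3254 to 6762 TPM, 1 of 8 higher) and at 8 weeks (3386 to 7085 against 3539 to 4766 TPM, 2 of 8 higher). Summed neutrophil markers were 16.4 to 31.2 TPM against 4.00 to 12.9 TPM at 6 weeks (0 of the 4 tested of 8 called) and 9.12 to 74.1 TPM against 4.32 to 15.04 TPM at 8 weeks (2 of 4 higher), with Ly6g at 0 in 45 of 62 mice, and 2 of 7 macrophage markers were higher at 6 weeks and 3 of 7 at 8 weeks. Of 8 fibroblast markers, none at 0 in any mouse, 1 was called higher and 0 lower at 6 weeks, and 1 higher and 5 lower at 8 weeks (median log2 fold change -0.96, beside -0.09 over all genes). Their summed TPM was 979 to 1403 against 839 to 1228 at 6 weeks and 738 to 1854 against 665 to 1287 at 8 weeks. Of 8 endothelial markers, none at 0 either, 0 were called at 6 weeks and 1 was lower at 8 weeks, with sums of 220.1 to 333 against 239.8 to 279.7 TPM and 72.8 to 326 against 258 to 333 TPM, the 72.8 being replicate 3. Of 10 adipocyte markers 1 was higher and 1 lower at 8 weeks, and of 10 liver and 5 tested red blood cell markers 0 were called in either week. The part of these cells in the changes of the glycolysis and glycogen genes was not tested.

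The neighboring genes of glucose metabolism were counted in lists of 72 genes, of which 66 were tested. In the list for pyruvate entry into mitochondria, 6 of 14 genes were lower and 0 higher in cachectic than in control mice at 8 weeks (median log2 fold change -0.34, beside -0.09 over all genes). The 6 were Dlat and Pdhx, which belong to the core of the pyruvate dehydrogenase complex, Pdhb, its E1 subunit, Pdk4, the kinase that turns it off, Pdp2, a phosphatase that turns it on, and Mpc2, a subunit of the mitochondrial pyruvate carrier. Of the other isozymes and transporters 2 of 16 were lower (Slc16a7 and Slc2a12), of the other glycogen genes 1 of 15 was higher and 1 lower, of the glycerol phosphate shuttle and pentose phosphate genes 1 of 11 and 0, and of the regulators 0 of 10 and 1. Over all genes 6.65% were called higher and 8.12% lower at 8 weeks. Without the libraries with few genes the pyruvate list had 1 higher and 9 lower at 8 weeks, and the other glycogen genes 4 and 3. The isozymes and transporters then had 2 and 3, the shuttle and pentose phosphate genes 1 and 0, and the regulators 0 and 2. The shares over all genes were then 22.2% higher and 12.4% lower. At 6 weeks 3 of the 66 were higher (Stbd1, Mpc1 and Hif1a) and 2 lower (Slc16a7 and Mpc2). Over all genes 5.62% were called higher and 1.17% lower in that week. Without the libraries with few genes, the pyruvate list had 1 gene higher and 4 lower at 6 weeks. The shares over all genes were then 26.9% and 4.29%. No other settings are given here for single genes of these lists.

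Dlat, the E2 subunit, had 36.5, 60.0 and 95.7 TPM in cachectic mice at 8 weeks (lowest, median, highest) and 114, 124, 115, 119 and 110.2 TPM in controls, without overlap (log2 fold change -0.89, limma adjusted p = 0.000161). Pdhx, which tethers the E3 subunit, had 34.3, 37.7 and 52.0 TPM against 61.8, 65.2, 62.4, 61.9 and 57.5 TPM, also without overlap (-0.61, adjusted p = 6.8e-05). Pdk4 had 71.8, 354 and 569.6 TPM against 1186, 971, 606, 735 and 297 TPM in controls and 817, 965, 786, 517 and 557 TPM in non-cachectic mice. All cachectic mice were below 4 of the 5 controls for Pdk4 (-1.24, adjusted p = 0.0465), a gene that rises with fasting, and at 6 weeks it was not called (0.19, adjusted p = 0.859). Pdp2 (-0.83, adjusted p = 0.0223) and Prkag3, a muscle subunit of the energy sensor AMPK (-0.67, adjusted p = 0.029), ranged lower, at 1.48 to 8.11 TPM against 7.73 to 10.2 TPM and at 1.64 to 6.23 TPM against 5.96 to 8.13 TPM.

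Slc16a7, a monocarboxylate transporter with high affinity for pyruvate, had 2.68, 3.27 and 6.43 TPM in cachectic mice at 8 weeks (lowest, median, highest) against 10.05, 8.24, 7.03, 10.4 and 8.52 TPM in controls, without overlap. Its log2 fold change was -1.02 (limma adjusted p = 0.000149) at 8 weeks and -0.82 (adjusted p = 0.00957) at 6 weeks. Stbd1, which tethers glycogen to membranes, rose in both weeks (0.81, adjusted p = 0.0151 at 6 weeks, and 0.67, adjusted p = 0.018 at 8 weeks), with 13.96, 15.2 and 33.7 TPM at 8 weeks against 8.34, 12.4, 14.1, 14.1 and 11.2 TPM. Pgls, an enzyme of the pentose phosphate pathway, was slightly higher (0.28, adjusted p = 0.0423), at 7.35 to 13.0 TPM against 7.33 to 9.15 TPM. Txnip, an inhibitor of glucose uptake, was not called (-0.30, adjusted p = 0.662).

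**Figure D5:**
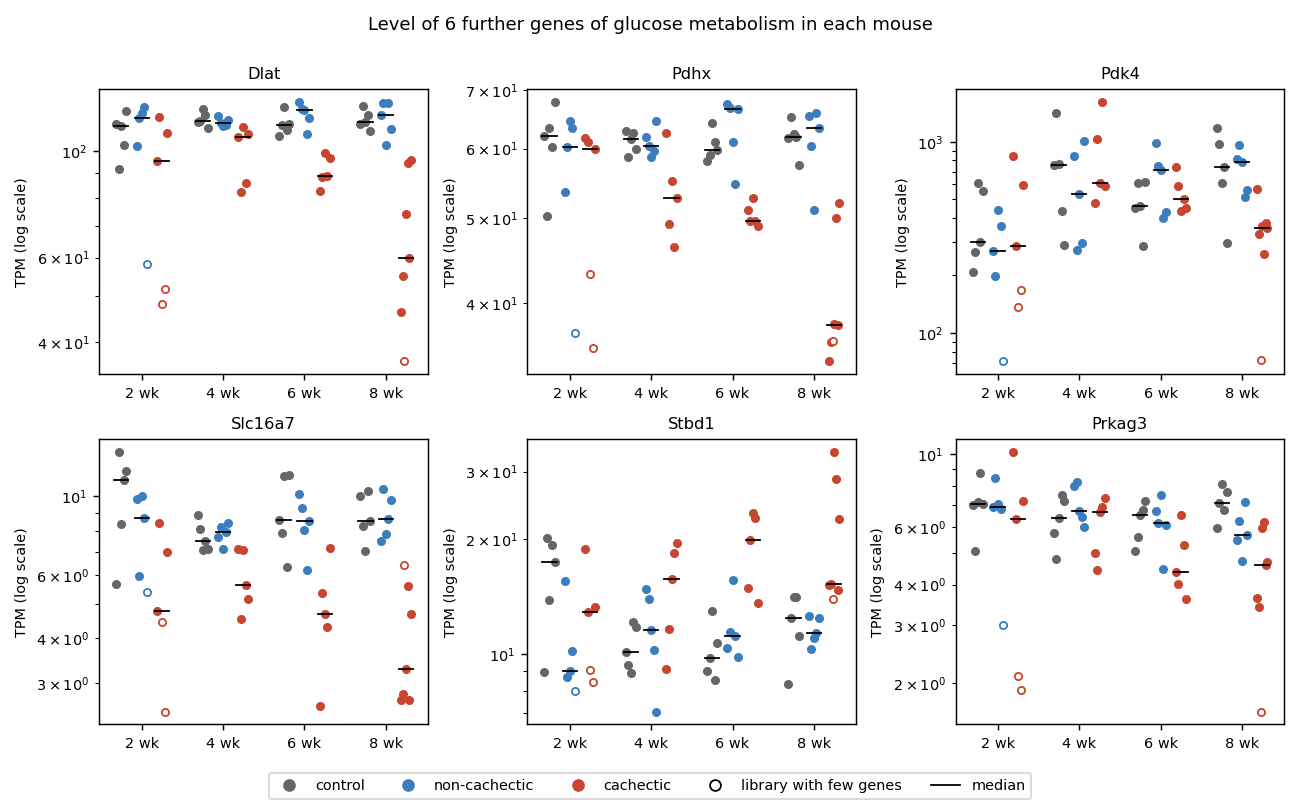
TPM (log axis) of 6 other genes of glucose metabolism in every mouse by group and week, with bars at medians and open symbols for the libraries with few genes. At 8 weeks the 7 cachectic mice lie below the controls for Dlat (36.5 to 95.7 TPM against 110.2 to 124 TPM), Pdhx and Slc16a7.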

How the data were processed

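Diaphragm RNA of 62 mice was sequenced on an Illumina NovaSeq instrument. Per the labels the libraries were made with a stranded mRNA kit, while the methods name an unstranded kit, so antisense overlap is unresolved. The authors deposited 1 table of TPM values, mapped and quantified with CLC Genomics Workbench on GRCm38 (mm10), and tested log TPM with Kruskal-Wallis and Dunn tests. No counts were used here, so the depth of each library is unknown and no counting interval is given.

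Groups and weeks came from the sample labels. The values were taken as log2(TPM + 1). The 13578 of 47643 genes that reached 1 TPM in 5 or more mice were fitted in limma 3.58.1 (R 4.3.3) with a mean-dependent prior spread, 1 mean per group and week and no covariates, and called at a Benjamini-Hochberg adjusted p under 0.05 within each comparison. The script was tested on simulated data. P-values measure the spread between mice of single cohorts.

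The members and lists were chosen with earlier results of these data known. Members called at 6 or 8 weeks against either group were given in full, the others by role. Of the other pathway genes, at most 5 called in each direction at 8 weeks were given, with Pdk4 and Txnip. Some genes that this rule names are not reported here. Hif1a, Mpc1, Mpc2, Pdhb, Pdhx and Slc2a12 were named outside that rule, after their values were seen. Positions are from GENCODE vM21 and start regions from RefSeq. Replicate numbers did not pair the mice. Alternatives were the pseudocount, filter, scaling, weights, block, mice in the fit, Dunn tests and libraries left out.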

Additional observations from a re-analysis of the deposited data

How the results depend on the processing

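No called member reversed under any alternative, but the number of members called moved. Cachectic versus control mice gave 3, 0, 3 and 6 called members at 2, 4, 6 and 8 weeks, and cachectic versus non-cachectic mice 0, 0, 2 and 5. Against controls the numbers were 6 at 2 weeks, 6 at 6 weeks and 11 at 8 weeks under median-ratio scaling, 1 at 4 weeks, 6 at 6 weeks and 14 at 8 weeks under quantile normalization, 11 at 8 weeks with TPM rescaled without mitochondrial genes, 0, 7, 20 and 18 at 2, 4, 6 and 8 weeks with array quality weights (an approximate fit that did not converge), 0, 15 and 1 at 2, 6 and 8 weeks with only the groups compared, and 0, 2, 16 and 17 without the 4 libraries with few genes. Dunn's test gave 0 at 2 and 6 weeks after adjustment, and 5 and 15 unadjusted at 4 and 6 weeks, and leaving out the 4 libraries with liver RNA gave 0 at 2 weeks. Against non-cachectic mice at 4, 6 and 8 weeks they were 7, 21 and 17 with array quality weights, 1, 15 and 0 with only the groups compared and 4, 13 and 16 without the libraries with few genes. At 6 and 8 weeks they were 7 and 11 under median-ratio scaling, 7 and 13 under quantile normalization, 5 and 10 without mitochondrial genes, and 0 and 1 with adjusted Dunn tests. Unadjusted Dunn tests gave 3, 7 and 13 at 2, 4 and 6 weeks, and at 8 weeks 3 were called with no filter and 3 without the libraries with liver RNA. For non-cachectic versus control mice at 2 weeks, 1 call became 0 with a pseudocount of 0.1, median-ratio scaling, only the groups compared, adjusted Dunn tests or without the libraries with liver RNA, and 2 with array quality weights or unadjusted Dunn tests, which also gave 2 at 6 weeks. For the change in the cachectic minus control difference, 0 became 10 (6 versus 4 weeks) and 4 (8 versus 4 weeks) with array quality weights and 1 (6 versus 4 weeks) with only the groups compared. Leaving out 1 mouse at a time gave 0 to 12, 0 to 1, 1 to 3 and 5 to 12 members against controls at 2, 4, 6 and 8 weeks, the 12 at 8 weeks without cachectic replicate 3, and 0 to 3, 0 to 0, 1 to 2 and 2 to 9 against non-cachectic mice, the 9 without the same library. For non-cachectic versus control mice it gave 0 to 2 at 2 weeks and 0 later, and 0 for every change between weeks. The replicate numbers did not pair the mice: over 60 pairs of same-numbered mice the correlation of deviations ran from -0.633 to 0.387 (median -0.03), with 18 over 0.1. With the replicate number as a block, 3 members were called against controls at 6 weeks and 7 at 8 weeks, all 7 lower. Over all 13578 genes, the main fit called 763 higher and 159 lower against controls at 6 weeks, and 903 and 1102 at 8 weeks. In the same order array quality weights gave 5707, 858, 3287 and 1634, and the block 776, 155, 739 and 1397. With only the groups compared it was 3399, 631, 252 and 300. At 2 weeks against controls median-ratio scaling called 1217 higher and 1169 lower, and array quality weights 0 and 153. Quantile normalization called 38 and 5 at 4 weeks, and array quality weights 901 and 168. Against non-cachectic mice at 4, 6 and 8 weeks array quality weights called 985, 4389 and 4387 genes higher and 130, 1130 and 1165 lower. Only the groups compared gave 54, 2603 and 186 higher and 2, 699 and 178 lower. Without the libraries with few genes it was 255, 2996 and 3144 and 48, 704 and 1381. At 6 and 8 weeks median-ratio scaling gave 468 and 1418 higher and 572 and 1509 lower. Quantile normalization gave 512 and 1365 and 743 and 1663. Rescaling without mitochondrial genes gave 341 and 721 and 562 and 2375. The 4 libraries with few genes are all from 2 and 8 weeks. Leaving them out therefore kept the fold changes at 4 and 6 weeks (median of the members against controls at 6 weeks 0.13 both ways). What changed there was the spread, which the fit shares over all weeks. The cause of the other shifts was not tested. Library depth is unknown, so members under 10 TPM may be limited by counting error.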
